A study of Mus musculus with 12 samples.

Results

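Fap and 8 genes that mark or accompany activated fibroblasts were followed across mouse tumours that combine TS/A, a mammary carcinoma line, with cancer-associated fibroblasts (CAFs). The members were chosen by symbol: Fap, its relative Dpp4, and the fibroblast markers Pdpn, Pdgfra, Pdgfrb, Acta2, Tagln, Thy1 and S100a4. They are 9 of the 56884 genes counted, and all 9 were among the 17757 genes with enough counts to be tested. The 12 tumour libraries, all labelled genotype WT and all holding TS/A+CAF cells, fall into 4 groups of 3. The control tumours are labelled as having no treatment, and the design text calls them vehicle. The other groups received radiotherapy (RT), muFAP-4-1BBL (FAP41BBL), or both (RT_FAP41BBL). By its name muFAP-4-1BBL joins a mouse FAP-directed part to 4-1BB ligand, a costimulator of T cells. The labels give no dose, age, sampling time, host strain or animal, and the CAFs added with the tumour cells and fibroblasts of the host are read together. The p-values therefore measure the spread between these libraries, which may be technical in part.

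Activated fibroblasts lay down and remodel the matrix of a tumour. FAP is a membrane serine protease of the dipeptidyl peptidase family, scarce in most healthy adult tissue and used as an address for drugs aimed at tumour stroma. The PDGF receptors pass on growth signals to fibroblasts and to the pericytes around small vessels, alpha smooth muscle actin (Acta2) and transgelin (Tagln) belong to the contractile apparatus of myofibroblasts, and podoplanin (Pdpn), Thy1 and S100a4 mark fibroblasts without being limited to them.

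Libraries held between 34076477 and 42067481 counts. Levels are given as CPM, the usual scaling of counts to a common total with TMM factors between libraries, as mean ± SD with n = 3, and changes as log2 ± standard error from edgeR's quasi-likelihood test, with p adjusted by Benjamini-Hochberg over all genes tested and called below 0.05. The 16 fibroblast matrix genes (collagens, Dcn, Lum, Fn1, Sparc and others) summed to between 17400 and 27300 CPM in every library. The 8 epithelial genes summed to 324 to 589 CPM and the 9 pericyte genes to 131 to 341 CPM. No tumour without CAFs is in the series, so these sums do not test the fibroblast label. Skeletal muscle set one group apart: its 20 markers summed to 7210 to 16700 CPM after RT, 72.2 to 753 CPM in controls, 103 to 2500 CPM after FAP41BBL and 645 to 1200 CPM after RT_FAP41BBL. None of the 20 was at 0 in any library, and 11 of the 20 rose with RT, beside 9.62% of all genes called. A second fit that took each library's muscle score (mean log2 CPM of these markers) as a covariate was therefore added after the data were seen. The score was 7.69 to 8.90 in the RT libraries and 1.23 to 6.13 in all others. Muscle content and RT therefore cannot be told apart by that fit, and a smaller RT change in it has no assigned cause. In bulk tumour RNA, fewer cells of a type and less RNA per cell cannot be told apart.

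Few members changed. RT against control called 2 of the 9, Tagln higher and S100a4 lower, where 9.62% of all tested genes were called. RT_FAP41BBL against control called 1 of the 9, Tagln higher, beside 7.91% of all genes. None of the 9 passed in FAP41BBL against control (0.00563% of all genes), RT_FAP41BBL against RT (5.76%), RT_FAP41BBL against FAP41BBL (0.946%), RT against FAP41BBL (3.51%), or the interaction (0.152%), which asks whether the RT change differed with FAP41BBL present. The median log2 change over the 9 was 0.161 with RT, 0.229 with FAP41BBL and -0.0274 with both, against -0.00189, 0.0091 and 0.01 over all genes. In those 5 comparisons 1 (Tagln), 2 (Pdpn and Thy1), 1 (Pdgfrb), 2 (Pdpn and Pdgfrb) and 2 (Pdpn and Tagln) of the 9 had an unadjusted p under 0.05 in edgeR, and DESeq2 and limma-voom called 0 in each. In RT and in RT_FAP41BBL against control 4 of the 9 had an unadjusted p under 0.05 in edgeR. Over all 17757 genes 4297 and 4193 did.

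**Figure D1:**
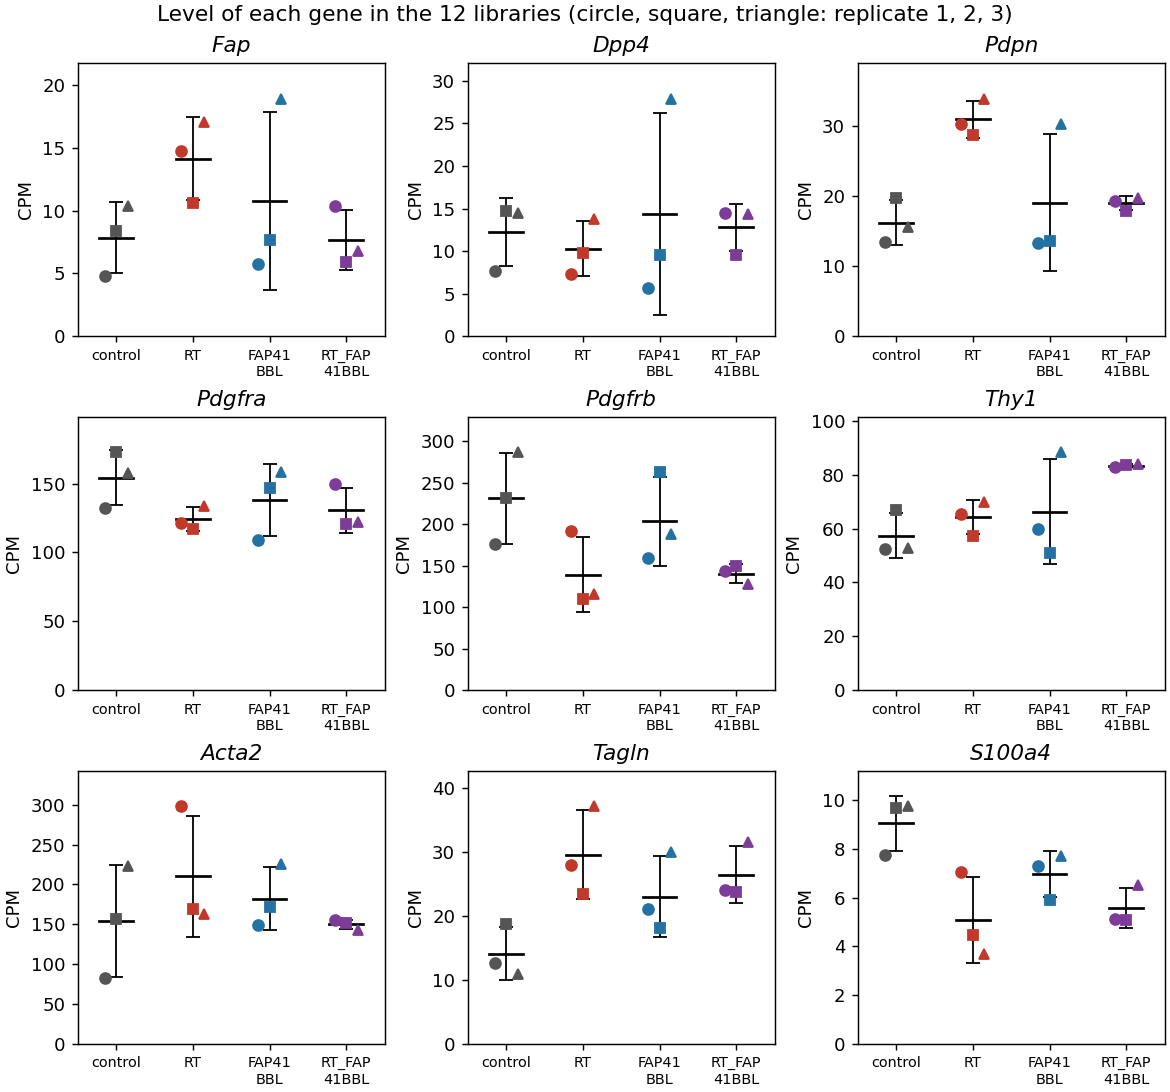
Level of each of the 9 members in every library (vertical axis, CPM from 0, one panel per gene). Each symbol is 1 library, and lines give the mean ± SD of each of the 4 groups (n = 3); Tagln sits higher and S100a4 lower in all 3 RT libraries than in all 3 controls.

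Per length of exon, the 9 members covered a wide range. Averaged over the 12 libraries, Acta2 had 79.2 FPKM (CPM per kilobase of exon), Pdgfrb 32.6, Thy1 22.6 and Pdgfra 13.6 FPKM. Pdpn (11.7 FPKM), Tagln (11.7 FPKM) and S100a4 (11.4 FPKM) lay close together, well within the SD of 3.28 to 4.11 FPKM that each showed over the libraries. The peptidase genes were lowest: Dpp4 had 1.97 ± 0.924 FPKM and Fap 1.78 ± 0.813 FPKM (SD, n = 12), less than their spread apart. Fap was nonetheless counted 170 to 685 times per library. Over the libraries its level ran from 0.843 to 3.34 FPKM.

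Fap (ENSMUSG00000000392.18, GRCm39 chr2:62331287-62404419, minus strand) and Dpp4 (ENSMUSG00000035000.9, chr2:62160417-62242575, minus strand) are neighbours 88711 bases apart. Both encode membrane peptidases that cut after proline. DPP4 removes dipeptides from hormones and chemokines, and FAP in addition cuts within proteins. The coding stretch around the serine of the active site, codon 624 in both, is shown because it displays how alike the genes are at the site that makes them peptidases; it is taken from the GENCODE M21 transcripts, coding bases 1840 to 1902, and capitals mark the 20 of 63 bases that differ.
Fap: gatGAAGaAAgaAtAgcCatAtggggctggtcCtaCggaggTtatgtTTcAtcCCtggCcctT
Dpp4: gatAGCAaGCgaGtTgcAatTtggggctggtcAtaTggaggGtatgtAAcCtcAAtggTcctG
Over the aligned coding sequence 62.4% of bases were identical (1388 of 2223). The longest run shared by any Fap and any Dpp4 transcript was 21 bases, shorter than the reads of 150 bases.

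Fap read 4.77, 8.37 and 10.4 CPM in the controls and 14.7, 10.6 and 17.1 CPM after RT. Every RT library was above every control, but the lowest RT library and the highest control nearly met. The groups' means were 7.83 ± 2.83 and 14.1 ± 3.29 CPM, and the log2 change of 0.85 ± 0.44 did not pass (95% interval -0.11 to 1.81, edgeR adjusted p = 0.265). After FAP41BBL alone Fap read 5.74, 7.67 and 18.9 CPM: replicate 3 held the highest value of all 12 libraries, and the other two lay within the control range. Their log2 change from control was 0.46 ± 0.44 (edgeR adjusted p = 0.999), and -0.23 without replicate 3. After RT_FAP41BBL Fap read 10.4, 5.92 and 6.75 CPM, overlapping the controls, with a log2 change of -0.03 ± 0.44 (edgeR adjusted p = 0.979).

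In order of mean, Fap was highest after RT, then FAP41BBL (10.8 ± 7.11 CPM), control, and RT_FAP41BBL (7.68 ± 2.37 CPM). No neighbours in that order differed beyond their spread: RT against FAP41BBL gave a log2 difference of 0.39 ± 0.43 (edgeR adjusted p = 0.721). All 3 RT_FAP41BBL libraries were below all 3 RT libraries, with a log2 difference of -0.88 ± 0.44 that did not pass (edgeR adjusted p = 0.259). RT_FAP41BBL against FAP41BBL gave -0.49 ± 0.44 (edgeR adjusted p = 0.692) and 0.20 without FAP41BBL replicate 3. The interaction for Fap was -1.34 ± 0.62 on the log2 scale (edgeR adjusted p = 0.364). With the muscle covariate, the RT change of Fap was 0.16 ± 0.73.

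Dpp4 did not follow the groups. It read 7.63, 14.7 and 14.5 CPM in controls, 7.35, 9.78 and 13.8 CPM after RT, 5.71, 9.60 and 27.9 CPM after FAP41BBL, and 14.5, 9.59 and 14.3 CPM after RT_FAP41BBL. Groups overlapped in every comparison, and FAP41BBL replicate 3 again held the highest value. The edgeR adjusted p was 0.816 for RT and 0.961 for RT_FAP41BBL against control. The RT change was -0.25 ± 0.52 on the log2 scale, and -1.26 ± 0.81 with the muscle covariate (edgeR adjusted p = 0.616). Of 6 tested relatives in the same peptidase family, none passed with RT in edgeR (1 with an unadjusted p under 0.05). Beside 7.91% of all genes called, 1 of the 6 rose with RT_FAP41BBL, a count near that share. That gene was Dpp7, a lysosomal dipeptidyl peptidase, at 8.84 ± 0.605 CPM in controls and 15.6 ± 1.32 CPM after RT_FAP41BBL (log2 change 0.82 ± 0.16, edgeR adjusted p = 0.0102).

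Within 150 kb of the pair lie 11 genes, Fap and Dpp4 included, and 4 of the 11 had enough counts to test: the pair itself, Ifih1 and Gca. Gcg, the glucagon gene that sits between Dpp4 and Fap, stayed at or below 0.058 CPM. The next tested gene after Fap, Ifih1, encodes the RNA sensor MDA5. It rose from 99.8 ± 9.83 CPM in controls to 189 ± 16.8 CPM after RT (log2 change 0.92 ± 0.17, edgeR adjusted p = 0.00553) and 186 ± 36.8 CPM after RT_FAP41BBL (0.90 ± 0.17, adjusted p = 0.00827). Gca, a calcium-binding protein gene, rose with RT_FAP41BBL from 3.38 ± 0.236 to 7.81 ± 0.476 CPM (1.21 ± 0.24, edgeR adjusted p = 0.0110). Fap and Dpp4 passed in neither comparison.

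Podoplanin (Pdpn, ENSMUSG00000028583.15, GRCm39 chr4:142994001-143026134, minus strand) is a mucin-like surface protein of fibroblasts, lymphatic endothelium and some epithelia that links to the actin cytoskeleton through ezrin-type proteins. Its promoter is shown because Pdpn had the highest correlation with Fap over all 12 libraries pooled, though not within groups; it is the RefSeq sequence on GRCm38.p6, a different build from the counts, chr4:143299515-143299814, minus strand, 250 bases before to 50 after the start, with GC boxes (GGGCGG on either strand) in capitals.
Pdpn promoter: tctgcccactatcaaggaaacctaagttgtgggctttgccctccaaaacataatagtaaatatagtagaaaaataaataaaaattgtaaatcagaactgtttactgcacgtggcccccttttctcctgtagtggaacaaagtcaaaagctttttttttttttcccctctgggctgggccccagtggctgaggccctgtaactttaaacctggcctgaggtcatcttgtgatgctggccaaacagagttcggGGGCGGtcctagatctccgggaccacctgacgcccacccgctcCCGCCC
The GC boxes lie at bases 1 to 6 and 44 to 49 from the start. A GC box was found in 35.7% of the 32851 promoters in the table.

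Pdpn read 13.4, 19.7 and 15.6 CPM in controls and 30.3, 28.7 and 33.9 CPM after RT. The RT libraries were tight and all clear of the controls (16.2 ± 3.20 against 31.0 ± 2.67 CPM), yet the log2 change of 0.93 ± 0.27 narrowly missed the threshold (95% interval 0.33 to 1.53, edgeR adjusted p = 0.0534). It passed in DESeq2 (adjusted p = 0.00817), in limma-voom (0.0327) and when only the RT and control groups were fitted (0.0118). DESeq2 made more false calls than its threshold allows in simulated data, a caution for its calls of other members too. Those data were drawn from edgeR's own fit, which favours edgeR, and cannot judge any single call. With the muscle covariate, which cannot tell muscle content from RT, the log2 change of Pdpn was 0.09 ± 0.35 (edgeR adjusted p = 0.957).

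FAP41BBL gave 13.3, 13.6 and 30.4 CPM of Pdpn, with replicate 3 at the RT level and the other two at the control level. In that library the muscle markers also summed highest of its group, 2500 CPM. The fibroblast matrix genes did so too, at 27300 CPM, the highest of all 12 libraries. So did the pericyte markers (266 CPM) and endothelial markers (508 CPM), but not the epithelial genes (468 CPM, and 475 CPM in replicate 1). The part of any of these was not tested. Without replicate 3, RT exceeded FAP41BBL by 1.20 on the log2 scale (edgeR adjusted p = 0.00143). With replicate 3 the difference was 0.70 ± 0.27 (edgeR adjusted p = 0.203). RT_FAP41BBL gave 19.4, 17.9 and 19.8 CPM, below every RT library, and a log2 difference from RT of -0.70 ± 0.27 (edgeR adjusted p = 0.147; 0.0121 when only those groups were fitted). The Pdpn interaction was -0.93 ± 0.38 (edgeR adjusted p = 0.304). The lymphatic endothelial markers, 6 genes, summed to 20.3 to 45.1 CPM in controls and 30.2 to 32.8 CPM after RT. The keratinocyte markers summed to 7.55 to 98.8 and 9.7 to 24.8 CPM. The part of either cell type in the Pdpn values was not tested. Of the 10 keratinocyte genes 6 were at 0 in at least 1 library, Krt1 in 9.

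None of the 4 tested partners of podoplanin passed in RT or RT_FAP41BBL against control. Cd44, the hyaluronan receptor, was nearest with RT, at 489 ± 33.6 CPM in controls and 620 ± 50.7 CPM (edgeR adjusted p = 0.0674). Cd9, a tetraspanin, was nearest with RT_FAP41BBL (log2 change -0.53 ± 0.17, edgeR adjusted p = 0.0730). In edgeR 2 and 1 of the 4 had an unadjusted p under 0.05 in these comparisons.

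**Figure D2:**
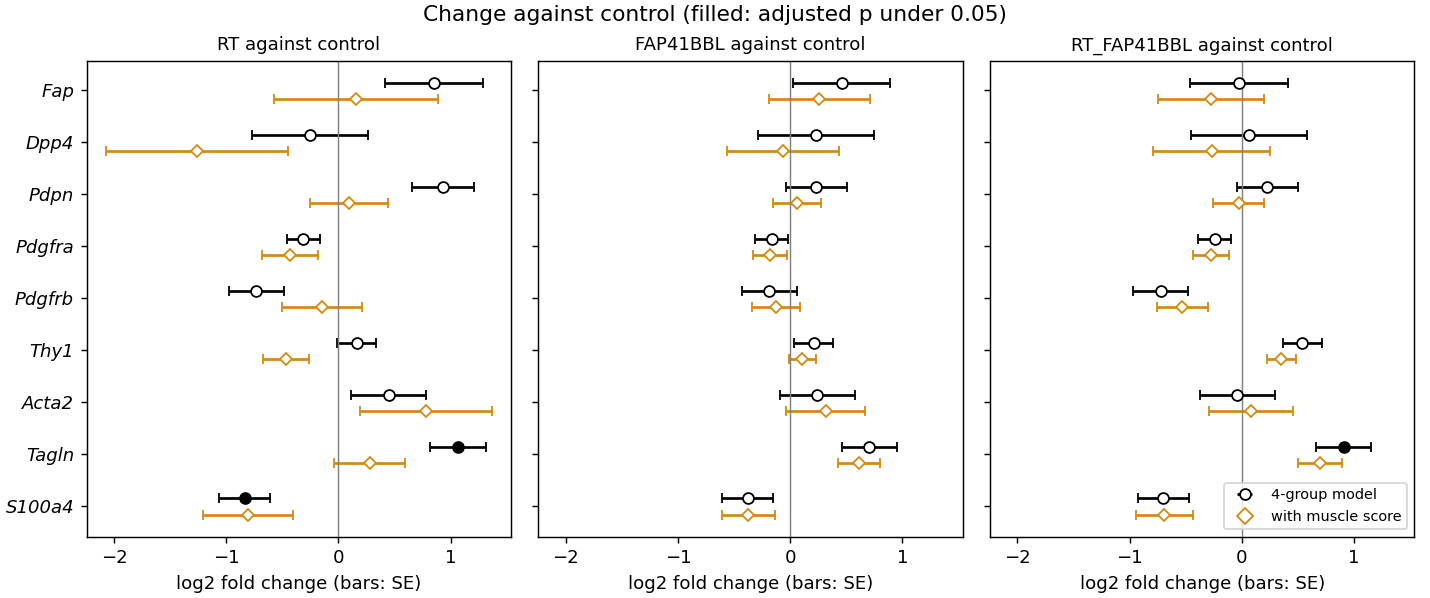
Log2 change of each of the 9 members against control in the 3 treated groups (horizontal axis, log2; circles are the edgeR fit of 4 groups, diamonds the fit with the muscle score as covariate, bars their SE, filled symbols an adjusted p below 0.05). Tagln with RT and with RT_FAP41BBL and S100a4 with RT are filled in the first fit, and none in the second.

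The contractile genes Acta2 (ENSMUSG00000035783.10, GRCm39 chr19:34218490-34232990, minus strand) and Tagln (ENSMUSG00000032085.6, chr9:45840917-45847356, minus strand) are targets of serum response factor, which binds CArG boxes. The Acta2 promoter is shown for the sites of this factor; it is the RefSeq sequence on GRCm38.p6, chr19:34255324-34255623, minus strand, with the CArG-like sites in capitals, CArG boxes in which 1 of the 6 central bases may be G or C.
Acta2 promoter: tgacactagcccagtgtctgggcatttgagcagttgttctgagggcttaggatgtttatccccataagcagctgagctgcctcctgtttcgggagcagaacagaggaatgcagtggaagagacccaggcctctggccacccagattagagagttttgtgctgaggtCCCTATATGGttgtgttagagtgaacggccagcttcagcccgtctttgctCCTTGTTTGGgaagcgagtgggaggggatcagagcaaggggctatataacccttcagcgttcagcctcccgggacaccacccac
The sites CCCTATATGG and CCTTGTTTGG lie at bases -84 to -75 and -34 to -25 from the start. A CArG-like site on either strand was found in 9.98% of the 32851 promoters, and the strict box, a subset of it, in 1.63%. These matches are letters in the sequence, not measured binding.

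Acta2 read 82.0, 157 and 224 CPM in controls, a range that alone spans much of the series. RT gave 298, 169 and 162 CPM, FAP41BBL 149, 172 and 226 CPM, and RT_FAP41BBL 155, 152 and 143 CPM. RT and FAP41BBL both overlapped the controls, and the RT_FAP41BBL libraries lay within them and below every RT library. No comparison of Acta2 passed.

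Tagln, an actin-binding protein of smooth muscle and myofibroblasts, did change. It read 12.6, 18.8 and 10.96 CPM in controls and 28.0, 23.5 and 37.1 CPM after RT, with no overlap. The means of 14.1 ± 4.12 and 29.5 ± 6.97 CPM gave a log2 change of 1.07 ± 0.25 (edgeR adjusted p = 0.0199). After RT_FAP41BBL it read 24.1, 23.7 and 31.5 CPM, again above every control, and rose by 0.91 ± 0.25 (edgeR adjusted p = 0.0448). FAP41BBL gave 20.99, 18.02 and 30.0 CPM, overlapping the controls by 1 library, with 0.71 ± 0.25 (edgeR adjusted p = 0.872).

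The Tagln calls depended on single libraries. The RT call was lost without control replicate 1 (edgeR adjusted p = 0.0753), control replicate 3 (0.0751) or RT replicate 3 (0.0697). The RT_FAP41BBL call was kept only without control replicate 2 (0.0434) and was lost without any other, at adjusted p up to 0.168. The log2 change stayed between 0.85 and 1.31 for RT and between 0.75 and 1.14 for RT_FAP41BBL. With the muscle covariate the changes were 0.28 ± 0.31 (edgeR adjusted p = 0.809) and 0.70 ± 0.20 (0.0656). The pericyte markers summed to 135 to 178 CPM in controls, 207 to 341 CPM after RT and 176 to 183 CPM after RT_FAP41BBL; adipocyte markers summed to 53.6 to 166, 214 to 603 and 167 to 593 CPM. Their part in the Tagln result was not tested.

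Another list of 18 genes held contractile genes under serum response factor, with Srf itself and its coactivator genes Mrtfa, Mrtfb and Myocd. Their median log2 change with RT was 0.534, against -0.00189 over all genes. Of the 18, 3 rose and none fell with RT, beside 9.62% of all genes called. They were Tpm1, a tropomyosin of muscle and non-muscle cells (665 ± 43.1 to 1053 ± 101 CPM, log2 change 0.66 ± 0.11, edgeR adjusted p = 0.00445), the muscle intermediate filament gene Des (3.44 ± 0.90, adjusted p = 0.0466), and Srf itself (0.57 ± 0.17, adjusted p = 0.0486). Tpm1 and Des are also expressed in skeletal muscle, whose markers rose in the same libraries. With RT_FAP41BBL, 1 of the 18 rose, beside 7.91% of all genes called: Cnn1, a smooth muscle calponin, from 0.501 ± 0.129 to 1.95 ± 1.18 CPM (edgeR adjusted p = 0.0496). The median change of the list was then 0.0956. Cnn1 also changed by 1.75 ± 0.55 with RT and 1.93 ± 0.55 with FAP41BBL on the log2 scale, without passing (edgeR adjusted p = 0.0679 and 0.684). Tpm1 was lower in RT_FAP41BBL than in RT, at 562 ± 60.6 CPM (log2 difference -0.91 ± 0.11, edgeR adjusted p = 0.00338). The Tagln interaction was -0.87 ± 0.35 (edgeR adjusted p = 0.288).

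**Figure D3:**
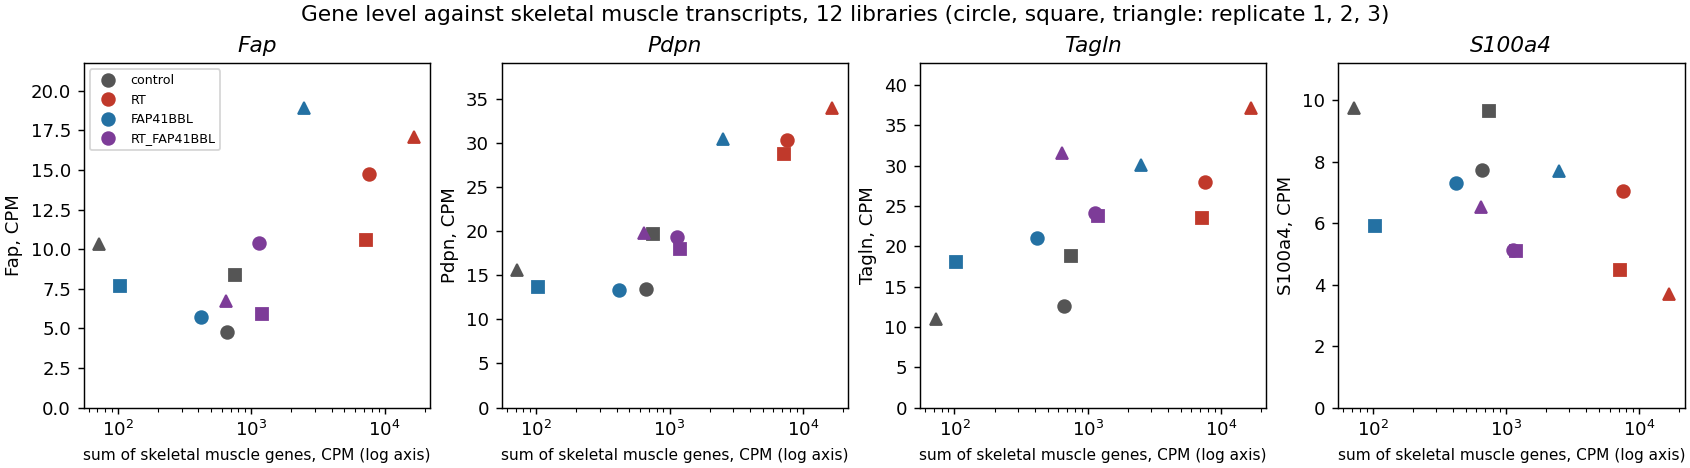
Level of Fap, Pdpn, Tagln and S100a4 (vertical axes, CPM from 0) against the summed level of the 20 skeletal muscle markers (CPM, log axis) in each of the 12 libraries. The 3 RT libraries lie at 7210 to 16700 CPM of muscle markers, apart from the 9 others.

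S100a4 (ENSMUSG00000001020.9, GRCm39 chr3:90511078-90513352, plus strand), also called fibroblast-specific protein, is a small calcium-binding protein that macrophages and other leukocytes express too. Its promoter is shown because S100a4 was the 1 member called lower; it is the RefSeq sequence on GRCm38.p6, chr3:90603520-90603819, plus strand, with the TATA box (TATAAA on either strand) in capitals.
S100a4 promoter: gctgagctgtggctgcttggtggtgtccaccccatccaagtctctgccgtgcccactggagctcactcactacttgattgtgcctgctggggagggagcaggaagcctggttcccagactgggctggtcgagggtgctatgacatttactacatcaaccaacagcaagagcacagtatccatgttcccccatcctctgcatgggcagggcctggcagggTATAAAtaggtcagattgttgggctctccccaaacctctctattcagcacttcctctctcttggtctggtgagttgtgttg
The TATA box lies at bases -31 to -26 from the start, and 13.6% of the 32851 promoters held one anywhere in this window.

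S100a4 read 7.75, 9.65 and 9.75 CPM in controls and 7.06, 4.46 and 3.69 CPM after RT. All RT libraries were below all controls, and the mean went from 9.05 ± 1.13 to 5.07 ± 1.76 CPM (log2 change -0.84 ± 0.23, edgeR adjusted p = 0.0385). The call was kept without RT replicate 1 (0.00667) and lost without any other RT or control library, at adjusted p of 0.0528 to 0.116. With only the RT and control groups fitted the adjusted p was 0.108, and with the muscle covariate the change was -0.80 ± 0.40 (adjusted p = 0.485), nearly the same size with a wider error. FAP41BBL gave 7.30, 5.90 and 7.71 CPM and RT_FAP41BBL 5.12, 5.09 and 6.51 CPM. Both groups lay below every control without passing. The RT_FAP41BBL change was -0.70 ± 0.23 (edgeR adjusted p = 0.0821).

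None of the 10 other S100 genes tested passed with RT, FAP41BBL or RT_FAP41BBL, and the list's median log2 changes were -0.182, -0.108 and -0.331 (2, 0 and 3 of the 10 with an unadjusted p under 0.05 in edgeR). Markers of macrophages, which also express S100a4, summed to 3390 to 4380 CPM in controls, 2680 to 4530 CPM after RT and 5080 to 6570 CPM after RT_FAP41BBL. With RT_FAP41BBL 5 of the 10 macrophage genes rose, beside 7.91% of all genes called. The part of macrophages in the S100a4 values was not tested.

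Thy1 (ENSMUSG00000032011.6, GRCm39 chr9:43954681-43959876, plus strand) is a lipid-anchored surface protein of fibroblasts, and in mice also of T cells. It read 52.6, 66.8 and 52.7 CPM in controls, 65.5, 57.3 and 69.7 CPM after RT, 59.7, 50.9 and 88.3 CPM after FAP41BBL, and 82.7, 83.5 and 83.9 CPM after RT_FAP41BBL. The RT_FAP41BBL libraries were close to one another and above every control and every RT library. The log2 change from control was 0.54 ± 0.17, short of the threshold (edgeR adjusted p = 0.0769), and passed in DESeq2 (0.0319) and when only the groups compared were fitted (0.00748). The difference from RT was 0.38 ± 0.17 (edgeR adjusted p = 0.212). With the muscle covariate the change from control was 0.35 ± 0.13 (edgeR adjusted p = 0.153) and the difference from RT 0.82 ± 0.17 (0.0967), while RT against control went from 0.16 ± 0.17 to -0.47 ± 0.21 (adjusted p = 0.618 and 0.41).

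T cell markers were also higher in every RT_FAP41BBL library than in every control, but they did not follow Thy1 in each library. FAP41BBL replicate 2 had 85.0 CPM of T cell markers, above every control, and the lowest Thy1 of all 12 libraries (50.9 CPM). The 10 genes summed to 43.1 to 71.2 CPM in controls, 33.9 to 60.6 CPM after RT, 72.7 to 89.5 CPM after FAP41BBL and 77.0 to 103 CPM after RT_FAP41BBL, and none was at 0. With RT_FAP41BBL 2 of the 10 rose, beside 7.91% of all genes called. They were Cd2 (4.13 ± 0.882 to 7.82 ± 0.897 CPM, edgeR adjusted p = 0.0265) and Cd28 (4.35 ± 0.916 to 8.93 ± 1.10 CPM, adjusted p = 0.0467). The endothelial markers summed to 322 to 371 CPM in controls and 459 to 532 CPM after RT_FAP41BBL. Of these 10 genes 2, Kdr and Eng, were called higher, beside the same share of all genes. The part of either cell type in the Thy1 values was not tested.

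The PDGF receptors, surface tyrosine kinases, mark fibroblasts (Pdgfra, ENSMUSG00000029231.16, GRCm39 chr5:75312953-75358876, plus strand) and fibroblasts plus pericytes (Pdgfrb, ENSMUSG00000024620.12). Pdgfra read 133, 173 and 158 CPM in controls, 122, 117 and 134 CPM after RT, 109, 147 and 158 CPM after FAP41BBL, and 150, 120 and 122 CPM after RT_FAP41BBL. Every treated group overlapped the controls and no comparison passed. Pdgfrb read 176, 231 and 286 CPM in controls, 191, 110 and 116 CPM after RT, 159, 263 and 188 CPM after FAP41BBL, and 143, 150 and 128 CPM after RT_FAP41BBL. The RT_FAP41BBL libraries were below every control and every FAP41BBL library, and RT replicate 1 alone kept RT within the control range.

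The log2 change of Pdgfrb was -0.73 ± 0.24 with RT (edgeR adjusted p = 0.0868) and -0.72 ± 0.24 with RT_FAP41BBL (0.0969), so neither passed. Without RT replicate 1 the RT change was -1.03 (edgeR adjusted p = 0.0175), and DESeq2 called both (0.0210 and 0.0237). With the muscle covariate the RT change was -0.15 ± 0.36. Of the 4 PDGF ligand genes none passed in edgeR in any of the 7 comparisons; 2 of the 4 had an unadjusted p under 0.05 in RT_FAP41BBL against control. Pdgfc, which acts through PDGF receptor alpha, was nearest, at 110 ± 7.47 CPM in controls and 71.7 ± 3.42 CPM after RT_FAP41BBL (edgeR adjusted p = 0.0577). The pericyte markers summed to 135 to 178 CPM in controls, 207 to 341 CPM after RT and 176 to 183 CPM after RT_FAP41BBL; their part in the Pdgfrb values was not tested.

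The members split by direction, and most non-overlapping groups were not calls. In RT against control 4 of the 9 did not overlap (Fap, Pdpn and Tagln higher, S100a4 lower), where 26.0% of all genes did not. In FAP41BBL against control 1 of the 9 did not overlap, S100a4, beside 10.8% of all genes. In RT_FAP41BBL against control the 4 were Tagln, Thy1, Pdgfrb and S100a4, beside 38.5%. In RT_FAP41BBL against RT the 4 were Thy1 higher and Fap, Pdpn and Acta2 lower, beside 27.9%. Pdgfrb alone did not overlap in RT_FAP41BBL against FAP41BBL (23.2%), and none of the 9 in RT against FAP41BBL (17.1%).

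In the wider fibroblast lists, counts are to be read beside the 9.62% of all genes called with RT and the 7.91% called with RT_FAP41BBL. Of 16 fibroblast matrix genes 1 was called with RT and with RT_FAP41BBL, a smaller share than over all genes. It was Mmp2, a gelatinase, which fell (611 ± 86.7 to 412 ± 72.0 and 433 ± 1.73 CPM, edgeR adjusted p = 0.0215 and 0.0442). The median log2 change of the 16 was -0.173 with RT and -0.313 with RT_FAP41BBL, against -0.00189 and 0.01 over all genes. In edgeR 3 and 7 of the 16 had an unadjusted p under 0.05, beside 4297 and 4193 of all 17757 genes. Of 14 tested myofibroblastic CAF genes, 2 rose with RT, Col11a1, a fibrillar collagen (0.917 ± 0.410 to 5.04 ± 2.40 CPM), and Inhba, an activin subunit (9.76 ± 1.81 to 15.9 ± 2.06 CPM), while Mmp11, a stromal protease, fell from 37.0 ± 2.57 to 22.2 ± 5.02 CPM. Inhba rose and Mmp11 and Col8a1 fell with RT_FAP41BBL. Of 12 inflammatory CAF genes, 4 rose and 1 fell with RT, led by the monocyte chemokine Ccl2 (28.4 ± 3.88 to 90.7 ± 19.2 CPM, log2 change 1.67 ± 0.18), with a median of 0.778. With RT_FAP41BBL 2 of them rose and 1 fell, Il1r1 (129 ± 14.3 to 87.5 ± 2.002 CPM, log2 change -0.55, edgeR adjusted p = 0.00498), with a median of 0.454. These RT counts come from the libraries high in skeletal muscle markers. With the muscle covariate, which cannot tell muscle content from RT, RT against control called 3 of all tested genes.

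The list of Dpp4+ universal fibroblast genes had 1 riser of 8 with RT and with RT_FAP41BBL, Ly6a, the Sca-1 antigen (240 ± 25.2 to 474 ± 107 and 668 ± 170 CPM). A count of 1 of 8 is near the share over all genes. Ly6a is also made by endothelial cells and leukocytes. FAP41BBL against control called none of the genes in any of these lists, and 1 gene of all tested; of the matrix, myofibroblastic, inflammatory and universal lists 1, 2, 5 and 0 genes had an unadjusted p under 0.05 in edgeR.

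Across the 12 libraries, Fap was set against each of the 8 other members, on log2 CPM with 100000 permutations and p adjusted over the 8 relations. Over all libraries pooled, Pdpn had the highest r (Pearson r = 0.845, adjusted permutation p = 0.00632; Spearman rho = 0.853, adjusted permutation p = 0.00552). The relation held without the 2 libraries farthest from the median of Fap, control replicate 1 and FAP41BBL replicate 3 (r = 0.79), within groups (r = 0.835) and without the RT group (r = 0.779, n = 9 libraries). Acta2 followed at r = 0.73 (adjusted permutation p = 0.0183) and rho = 0.783 (adjusted permutation p = 0.0151), with 0.574 without those 2 libraries, 0.653 within groups and 0.791 without RT.

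Dpp4 gave r = 0.576 (permutation p = 0.0486, adjusted 0.13) and rho = 0.49 (adjusted permutation p = 0.222), falling to 0.256 without the 2 libraries, so the pooled relation rests on them. It was 0.887 within groups and 0.887 without RT, the group in which Fap was high and Dpp4 was not. Both values still include those 2 libraries, and neither was computed without them. Dpp4 thus exceeded Pdpn in both of these, and Pdgfra (0.845) did so within groups. For Tagln r was 0.508 (adjusted permutation p = 0.184), for Pdgfra 0.324 and Thy1 0.289 (both 0.477; 0.845 and 0.691 within groups, 0.674 and 0.393 without RT), for Pdgfrb -0.0577 (0.854) and for S100a4 -0.207 (0.589). Spearman's rho was 0.531, 0.357, 0.329, -0.0909 and -0.238 for these, with adjusted permutation p of 0.21 to 0.782.

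**Figure D4:**
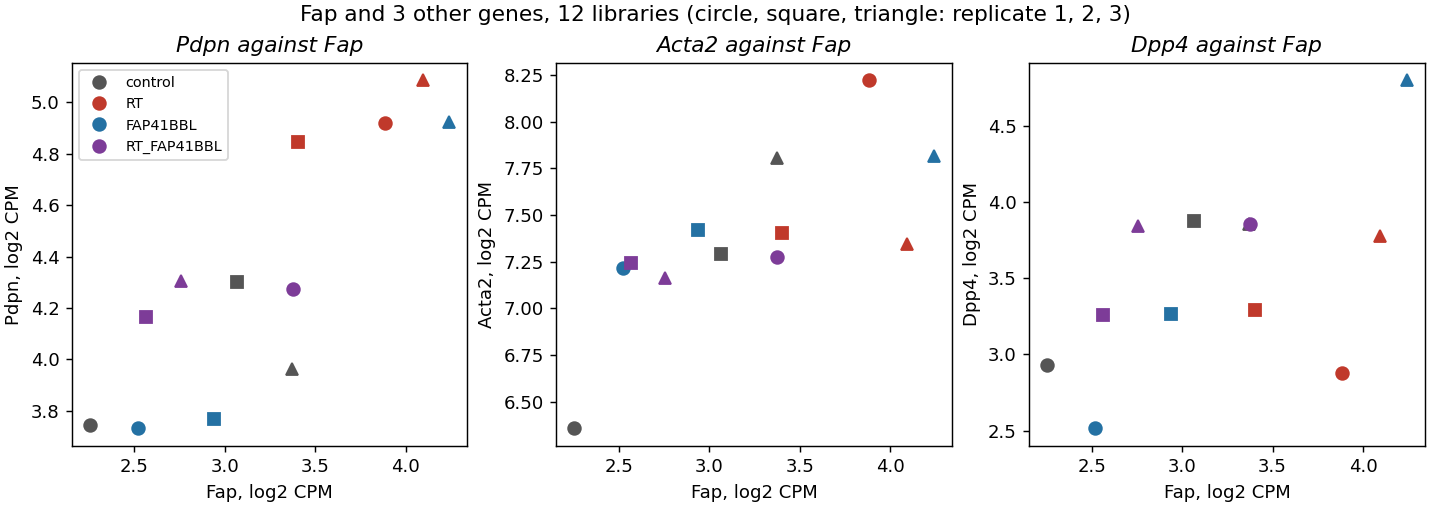
Level of Pdpn, Acta2 and Dpp4 against Fap in the 12 libraries (both axes log2 CPM, coloured by group, symbols by replicate). Of the 8 members set against Fap, Pdpn has the highest Pearson r over all libraries pooled (0.845); in the Dpp4 panel the RT libraries lie to the right without being high.

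Among 11694 genes compared over the 12 libraries, the 8 most like Fap in pattern by Pearson's r were Lum (0.931), a collagen-binding proteoglycan of fibroblasts, Il33 (0.918), an alarmin cytokine, Stxbp6 (0.906), Abca8b (0.901), Dact1 (0.894), Naalad2 (0.89), the growth factor gene Fgf2 (0.89) and Tmem100 (0.889). Lum spanned 38.0 to 120 CPM over the libraries. Pdpn ranked 38 of these genes by likeness to Fap, Acta2 226, and Dpp4 715. These correlations describe 12 libraries in which muscle content and group also vary, and carry no test.

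Each of the other members had its own closest genes. Dpp4 was most like Nid1 (0.959), a basement membrane protein, Gas7 (0.938) and the metalloprotease gene Adamts12 (0.934). For Pdpn they were Bcam (0.971), a laminin receptor, Eml1 (0.969) and Galnt17 (0.958). Pdgfrb was closest to Pcdhb17 (0.98) and Fmnl3 (0.957), and Pdgfra less closely to Add3 (0.865), Ulk1 (0.858) and Plxnb1 (0.855). Acta2 was closest to Prag1 (0.946) and to Actg2 (0.932), another smooth muscle actin, and then to Frs3 (0.879). For Tagln they were Nnmt (0.92), Plin4 (0.917), which coats lipid droplets of adipocytes, and Gpd1 (0.913). Thy1 was closest to Pla1a (0.945) and near to Emcn (0.911), an endothelial sialomucin, and S100a4 to Btd (0.967), Mmp11 (0.957) and Lztr1 (0.956).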

How the data were processed

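PolyA RNA of 12 tumours was sequenced as stranded paired reads. The authors deposited raw counts of read pairs per gene, made with featureCounts 1.6.0 on the GENCODE M33 annotation of GRCm39 per the file headers, after STAR 2.7.9a alignment per the submitters' processing notes, which also name FastQC 0.11.8, edgeR and limma. Symbols came from GENCODE M21 by gene ID (51948 of 56884 genes).

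From the counts, edgeR 4.0.16 in R 4.3.3 filtered low genes (17757 kept), scaled libraries by TMM and fitted 1 model with 4 group means (quasi-likelihood, robust, Benjamini-Hochberg threshold 0.05). Alternatives were other scaling, no filter, DESeq2 1.42.0, limma-voom (limma 3.58.1), a replicate block, only the groups compared, and each library left out; the muscle covariate was added later. Totals of 34076477 to 42067481 counts gave 148 or more counts per member and library. Named list genes were up to 3 per list with the smallest p; genes alike in pattern had a mean log2 CPM of at least 1, without predicted, pseudogene, ribosomal, mitochondrial or receptor segment genes. Some genes that this rule names are not reported here. Members and lists were chosen with earlier results of these data known. Promoters are from RefSeq (GRCm38.p6; 5 of 9 members matched). The fits were tested on simulated data with 3 libraries a group, drawn from edgeR's own means and dispersions, a setting that favours edgeR. There edgeR was held to a share of false calls under a limit looser than the 0.05 threshold. The Wald test of DESeq2 exceeded that threshold.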

Additional observations from a re-analysis of the deposited data

How the results depend on the processing

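Of the 9 members, 2 passed in RT against control, 4 with DESeq2 (Pdpn and Pdgfrb added), 0 with the muscle covariate chosen after seeing the data, and 0 to 3 when each library was left out. In RT_FAP41BBL against control 1 passed, 4 with DESeq2 and with only the groups compared, 0 with library totals, without the low-count filter, with the replicate block and with the muscle covariate, and 0 to 1 when each library was left out. In RT_FAP41BBL against RT none passed, and 1 (Pdpn) with only those groups fitted. In RT against FAP41BBL none passed, and 0 to 1 (Pdpn) when each library was left out. In the other comparisons no alternative run called a member. The DESeq2 counts are to be read beside its excess of false calls in simulated data, which were drawn from edgeR's own fit.

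The log2 change of Fap in RT_FAP41BBL against control (-0.027) turned to 0.0014 with limma-voom and 0.037 with the replicate block, and ran from -0.30 to 0.22 when each library was left out. It ran from -0.23 to 0.75 in FAP41BBL against control and from -0.81 to 0.20 in RT_FAP41BBL against FAP41BBL. In RT against FAP41BBL it was -0.10 with the muscle covariate. The cause was not tested. The relations of Fap with other members kept their direction and side of the threshold with another prior count and with library totals.

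Counts of all genes past the test moved more. Against the 1709, 1, 1404, 1022, 168, 623 and 27 genes of the 7 comparisons in the order given in the report, DESeq2 gave 2507, 48, 2325, 2063, 783, 1333 and 639. Fits of only the groups compared gave 1064 for RT, 0 for FAP41BBL and 3223 for RT_FAP41BBL against control, 269 for RT_FAP41BBL and 210 for RT against FAP41BBL. Without the low-count filter FAP41BBL had 9 and the interaction 102, which had 17 with library totals and 9 with the replicate block. With the muscle covariate RT had 3, FAP41BBL 2 and RT_FAP41BBL 856 against control, RT_FAP41BBL against RT 1, RT against FAP41BBL 1 and the interaction 0. Leaving out each library gave 805 to 1987, 0 to 3, 351 to 914, 70 to 2305, 0 to 132, 139 to 884 and 0 to 269.

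Replicate numbers did not pair the libraries: 5 of 18 same-numbered pairs had a correlation of deviations above 0.1 (range -0.316 to 0.327), and 3 of 12 libraries correlated best with their own number. With the replicate block Pdpn passed in RT against control (adjusted p = 0.0473) and Tagln did not in RT_FAP41BBL (0.0527). With 3 libraries a group and a standard error of 0.44, the 95% interval of the RT change of Fap included 0.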
